A study of Homo sapiens
Mus musculus and Mus musculus and Homo sapiens with 16 samples.

Results

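The genes described here are 4 P2X receptors (P2RX1, P2RX4, P2RX5 and P2RX7), the ectoenzymes ENTPD1 and NT5E, and the adenosine receptor ADORA2A. These 7 genes were taken by symbol from a table of 58051 human genes, and all 7 were listed there. They were chosen by their measured levels and fold changes in these REC-1 libraries being known, so their levels and differences in REC-1 cells are given as a description. No p-value of theirs is printed, and whether one met the call criterion is stated as part of that description, not as a test. REC-1 is a human mantle cell lymphoma (MCL) line, and MS-5 is a mouse bone marrow stromal line. REC-1 cells were kept alone (Sep) or with MS-5 for 24 h, after 5000000 REC-1 cells had been added to 500000 MS-5 cells seeded 24 h earlier. From the coculture, the floating lymphoma cells (Susp) and the adherent layer of lymphoma and stromal cells (Adh) were collected as separate fractions, and MS-5 kept alone (MS5) was the stromal control. All cultures were untreated. Each group had 4 libraries, and reads of the mixed layer were separated by species before counting. Each model is 1 cell line, and the study describes the 4 libraries of a group as independent experiments, which the labels do not state.

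Human read counts per library were 9325412 to 12597891 in Sep, 15000927 to 21467832 in Susp and 7758979 to 13241751 in Adh, so every Susp library was deeper than every other REC-1 library. Mouse counts were 10097555 to 17397651 in MS5 and 29495404 to 34615602 in Adh, so every Adh library was deeper in mouse counts than every MS5 library. In Adh, human counts were 18.3% to 28.2% of both species together. Of 10 B cell and MCL markers, 9 passed the low-count filter, CD5 was below 1.4 CPM (counts per 1000000 counts of the library, after scaling) in every library, and the summed level was 8790 to 11100 CPM in Sep, 9950 to 12600 CPM in Susp and 9250 to 11300 CPM in Adh. Of 10 human stromal markers none passed, with at most 0.77 CPM in sum. For 7 stromal markers expressed in MS-5, the Adh libraries held 14 human against 584197 mouse counts, a human share of 0.0024% in all and 0.0236% at most for a single gene. The MS-5 counts carried 7 of 10 stromal markers, while Lum, Dcn and Thy1 were listed at 0.

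Extracellular ATP is a signal that cells release through channels or vesicles. P2X receptors are cation channels opened by ATP. ENTPD1 (CD39) cuts ATP and ADP to AMP at the cell surface, NT5E (CD73) cuts AMP to adenosine, and ADORA2A is a receptor that answers adenosine by raising cyclic AMP. P2RX7 opens only at high ATP and is known for its link to the inflammasome, and P2RX5 is known for expression in lymphoid cells. The comparisons follow the fractions of the coculture. Susp against Sep is for its floating lymphoma cells, Adh against Sep for those in the stromal layer, and Adh against Susp for the 2 fractions of the same cultures. Susp cells were those not attached when collected, and whether they had attached earlier is not known. The study kept cocultures under the conditions of its stromal cells, whose medium differed from that of its lymphoma lines. Its methods do not state the medium of Sep, so any part of a difference in medium was not tested. In such bulk RNA, fewer cells expressing a gene and less of its RNA per cell cannot be told apart.

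P2RX1 and P2RX5 were the P2X receptors expressed at substantial levels in REC-1, P2RX4 was low, and P2RX7 was near the detection limit. Of the downstream genes, ENTPD1 was expressed, NT5E was near the detection limit, and ADORA2A was barely detected. Only P2RX1 met the criterion used for a changed gene, an adjusted p of at most 0.05 with a fold change of at least 1.5, and it did so only in Susp against Sep, where it was 1.78-fold higher. Of the 7 genes, 5 passed the low-count filter, and 1 of these 5 was called in Susp against Sep, where 0.731% of the 12861 genes tested were called and 0.428% were called higher. In Adh against Sep 0 of 5 were called, with 2.4% of all genes called, and in Adh against Susp 0 of 5 were called, with 0.778% of all genes called. These counts are part of what the choice of genes used, and nothing is read from them. As a count at an unadjusted p below 0.05, over all genes, the comparisons gave 2145, 2596 and 2316 genes, respectively.

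**Figure D1:**
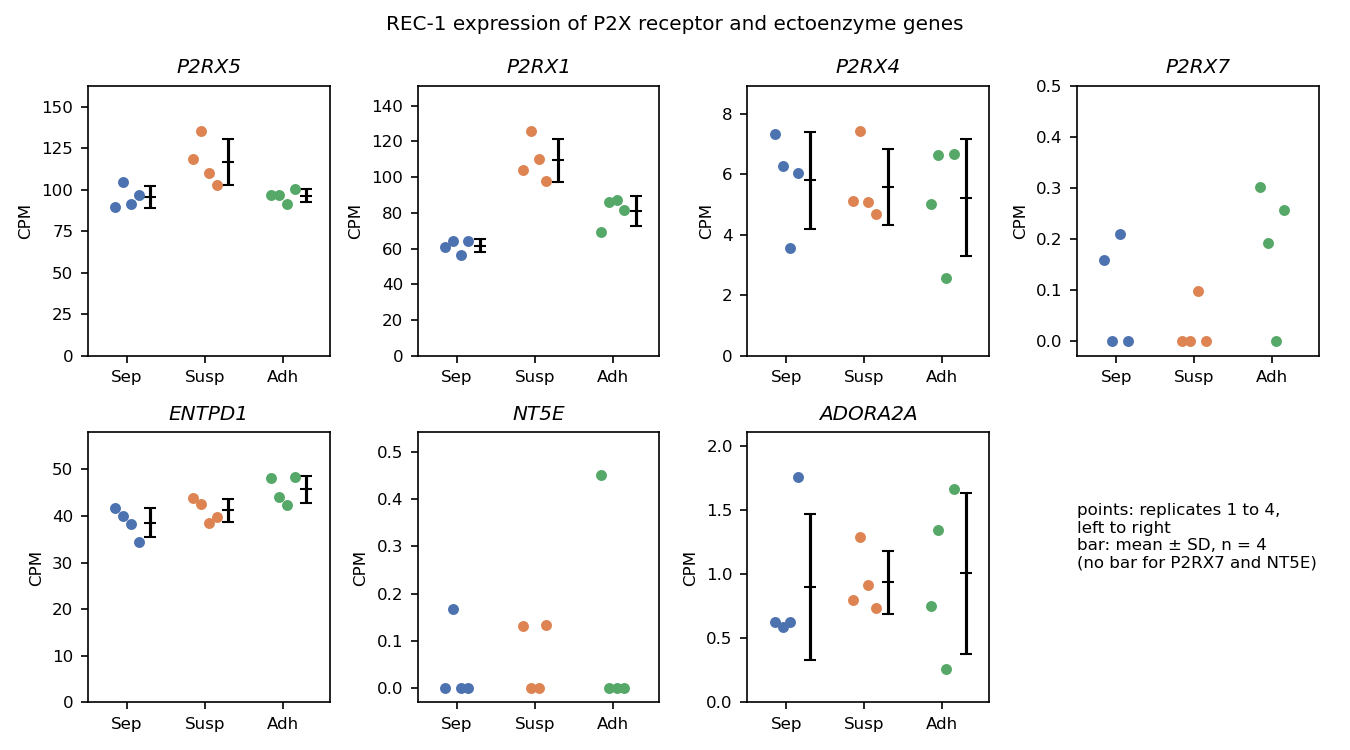
CPM of each of the 7 genes in the 12 REC-1 libraries, with 1 point per library (replicates 1 to 4 from left to right in Sep, Susp and Adh) and the mean ± SD beside the points, except for P2RX7 and NT5E. The 3 groups of P2RX1 points do not overlap and run from Sep through Adh to Susp, while P2RX4 and ADORA2A overlap between all groups.

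P2RX1 encodes the ATP-gated channel best known from platelets and smooth muscle. It is encoded on the minus strand of chromosome 17 (GRCh38, GENCODE 44) from 3896592 to 3916476. In Sep, P2RX1 stood at 60.9, 64.0, 56.7 and 64.5 CPM in replicates 1 to 4. In Susp it stood at 103.8, 125.8, 110.0 and 97.8 CPM. In Adh it stood at 69.1, 85.9, 87.1 and 81.6 CPM. Every Susp library was above every Adh library, and every Adh library was above every Sep library. The means were 61.5 ± 3.59 CPM in Sep, 109.3 ± 12.03 CPM in Susp and 80.9 ± 8.24 CPM in Adh (SD, n = 4 each).

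P2RX1 rose in Susp against Sep by a log2 fold change of 0.83 (SE 0.10, 95% interval 0.61 to 1.04). The Susp libraries were also the deepest. With all counts thinned to the size of the smallest library, an alternative chosen after seeing the data, the log2 fold change of P2RX1 was 0.80. Thinning keeps each gene's expected share of its library, so it cannot separate depth from group. The part of depth in the P2RX1 difference was not tested. Adh against Sep gave 0.39 (SE 0.10, interval 0.18 to 0.61), a 1.31-fold difference. It passed the adjusted p, as 3.41% of all genes did, but not the 1.5-fold minimum. Adh against Susp gave -0.44 (SE 0.10, interval -0.65 to -0.22). This difference passed neither the adjusted p, as 0.941% of all genes did, nor the 1.5-fold minimum. Both contrasts with Sep share its 4 libraries.

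Of the 9 B cell and MCL markers tested, the median log2 fold change in Susp against Sep was 0.21, with a range of -0.18 to 0.55. The lowest was PAX5, a B cell transcription factor, at -0.18, while MS4A1 (CD20) was at -0.05 and SOX11 at 0.03. The 2 that passed the adjusted p were chosen after their values were seen. CD79B, a signalling chain of the B cell receptor, was at 469.1 ± 37.2 CPM in Sep and 686 ± 139 CPM in Susp (SD, n = 4 each), and CD22, an inhibitory B cell lectin, at 49.7 ± 4.85 CPM and 67.2 ± 2.101 CPM. Their log2 fold changes were 0.55 and 0.43, with edgeR adjusted p of 0.031 and 0.0236, and both stayed under 1.5-fold. Among the 9 B cell and MCL markers tested, 0 were called in any comparison, with 4, 2 and 3 at an unadjusted p below 0.05 in Susp against Sep, Adh against Sep and Adh against Susp. T cell markers summed to 4.43 to 5.58 CPM in Sep, 5.91 to 7.83 CPM in Susp and 6.04 to 9.88 CPM in Adh, and 3 of the 6 passed the filter. Myeloid markers summed to at most 2.2 CPM in any library. The part of any of these in the P2RX1 difference was not tested.

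**Figure D2:**
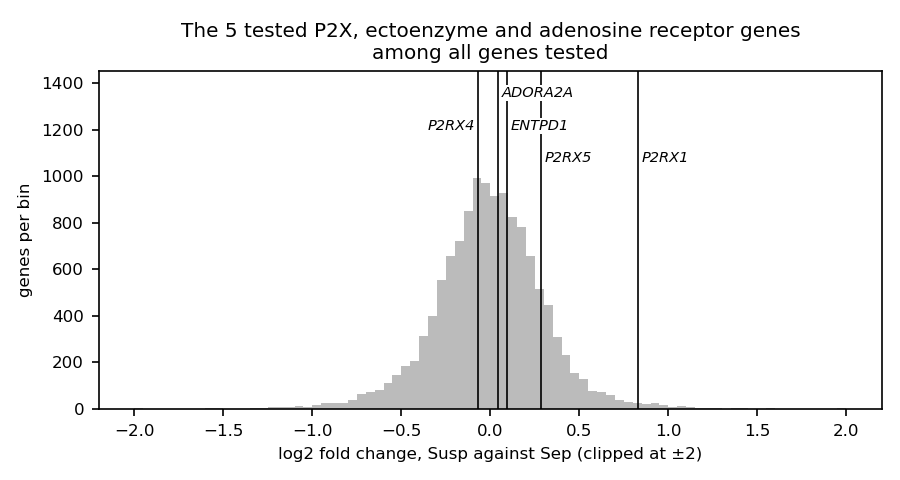
Histogram of the log2 fold changes of Susp against Sep over all 12861 genes tested (bins of 0.05, values beyond ±2 placed in the end bins), with vertical lines for the 5 genes of the set that were tested. P2RX1, at 0.83, lies in the upper tail of the distribution, at the 99th percentile, and P2RX4, ADORA2A and ENTPD1 lie near its centre.

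P2RX5, the channel known from lymphoid cells, lies on the same strand of chromosome 17 from 3672199 to 3696240, 200351 bases from P2RX1. Its level was 89.8, 104.5, 91.5 and 97.2 CPM in Sep, 118.7, 135.5, 110.0 and 103.2 CPM in Susp, and 97.2, 96.7, 91.5 and 100.7 CPM in Adh. The Susp libraries were all above the Adh libraries, whereas Susp replicate 4 fell below Sep replicate 2. The means were 95.8 ± 6.62, 116.9 ± 13.97 and 96.5 ± 3.81 CPM (SD, n = 4 each). On the log2 scale P2RX5 differed by 0.29 (SE 0.09) in Susp against Sep, by 0.01 (SE 0.09, interval -0.19 to 0.21) in Adh against Sep, and by -0.28 (SE 0.09) in Adh against Susp, and it was called in none of these. The 5 genes tested included 1 that did not overlap between Susp and Sep (P2RX1), 2 between Adh and Sep (P2RX1 and ENTPD1) and 2 between Adh and Susp (P2RX1 and P2RX5). The share of all genes tested without overlap was 11.3%, 15.7% and 11.4% in these comparisons, of which 5.5%, 7.42% and 5.84% of all genes were in the same direction (higher, higher and lower).

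The ratio of P2RX1 to P2RX5 counts within a library does not depend on the library's size. It was 0.643 ± 0.0325 in Sep (range 0.612 to 0.678), 0.937 ± 0.0518 in Susp (0.875 to 1) and 0.84 ± 0.104 in Adh (0.711 to 0.952; SD, n = 4 each). Every library of either coculture fraction was above every Sep library, and the 2 fractions overlapped. P2RX1 thus gained on P2RX5 in both fractions, which is a description of 2 genes chosen with these values known.

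**Figure D3:**
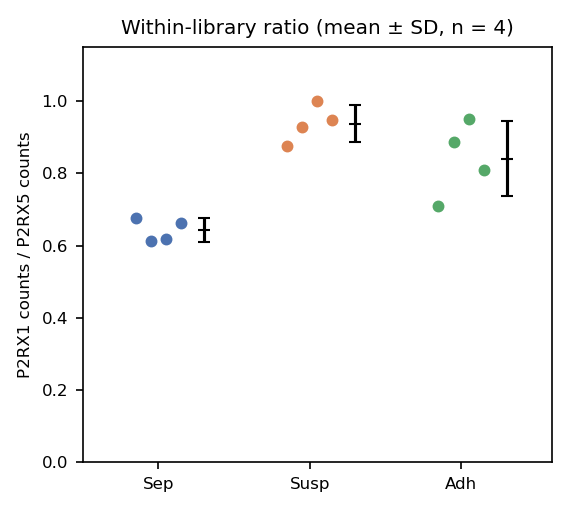
Ratio of P2RX1 counts to P2RX5 counts in each REC-1 library (points, replicates 1 to 4 from left to right) with the mean ± SD of 4 libraries for Sep, Susp and Adh. All Sep points lie at or below 0.678 and all points of the 2 coculture fractions at or above 0.711.

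The neighbouring genes on chromosome 17 were measured in the same libraries. CAMKK1, a calcium-dependent kinase gene next to P2RX1, was at 30.5 ± 3.44 CPM in Sep, 44.9 ± 6.42 CPM in Susp and 33.1 ± 5.79 CPM in Adh (SD, n = 4 each), with a log2 fold change of 0.56 in Susp against Sep and an edgeR adjusted p of 0.0652. ATP2A3, a calcium pump gene on the other side of P2RX1, gave 0.30. ITGAE, GSG2 and NCBP3, which lie between P2RX5 and CAMKK1, gave 0.16, -0.08 and -0.08. EMC6, on the far side of P2RX5, gave 0.825 (SE 0.42, edgeR adjusted p = 0.3165), at means of only 0.65 CPM in Sep and 1.16 CPM in Susp. None of these neighbours was called in any comparison.

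Over the 12 REC-1 libraries, the genes whose log2 CPM followed P2RX1 most closely among the 8492 with a mean of at least 10 CPM were CD82 (Pearson r 0.958), IL10RA (0.94) and CD72 (0.939). These libraries share groups and depth, so r describes the shared pattern of groups and nothing beyond it. CD82 encodes a tetraspanin, IL10RA a chain of the IL-10 receptor and CD72 a B cell co-receptor. Their means in Sep, Susp and Adh were 58.3, 91.1 and 74.3 CPM for CD82, 266.3, 422.4 and 349 CPM for IL10RA, and 22.9, 37.8 and 28.9 CPM for CD72.

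P2RX4 encodes the channel found in most tissues and in lysosomes. Its libraries were at 7.32, 6.28, 3.56 and 6.06 CPM in Sep, 5.11, 7.44, 5.08 and 4.70 CPM in Susp, and 5.04, 6.64, 2.57 and 6.67 CPM in Adh. The 3 groups overlapped throughout. Log2 fold changes were -0.07 in Susp against Sep (SE 0.27, interval -0.63 to 0.50), -0.15 in Adh against Sep (SE 0.28, interval -0.74 to 0.44) and -0.09 in Adh against Susp (SE 0.27, interval -0.67 to 0.49). With 20 to 121 counts per library, a 1.5-fold decrease of P2RX4 lies within each of these intervals.

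P2RX7 lies next to P2RX4 on chromosome 12 (121132819 to 121188032 against 121210065 to 121234106, with 22032 bases between them). P2RX7 had 14 counts in all 12 libraries together, of 153672774. Its counts were 2, 0, 2 and 0 in Sep, 0, 0, 2 and 0 in Susp, and 4, 2, 0 and 2 in Adh. Of the 12 libraries 6 had none. A count of 0 allows up to 3 counts, which is 0.184 to 0.385 CPM in these 6 libraries, for counting error only. Most low counts are even, and where a fragment gave 2 counts the limit is 6 counts, or 0.369 to 0.771 CPM. No difference of P2RX7 between the groups was detectable at this depth.

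ENTPD1, the surface enzyme that takes ATP to AMP, lies on chromosome 10 from 95711779 to 95877266. It was at 41.7, 39.9, 38.2 and 34.4 CPM in Sep, 43.9, 42.7, 38.5 and 39.7 CPM in Susp, and 48.1, 44, 42.4 and 48.2 CPM in Adh. Every Adh library was above every Sep library, while Susp overlapped with both. The log2 fold change was 0.25 in Adh against Sep (SE 0.10, interval 0.04 to 0.45), 0.09 in Susp against Sep (SE 0.10, interval -0.11 to 0.30) and 0.15 in Adh against Susp (SE 0.10, interval -0.05 to 0.35). None was called, and each interval lies within 1.5-fold.

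The antisense gene ENTPD1-AS1 overlaps 40% of the exon bases of ENTPD1. The study does not describe its library kit as strand-specific, and whether counting used the strand is not given in the sources used here. Reads of the 2 genes in the shared bases may therefore not be told apart. ENTPD1-AS1 was at 18.02 to 22.5 CPM in Sep, 9.16 to 16.7 CPM in Susp and 17.4 to 17.8 CPM in Adh. It was lower in every Susp library than in every Sep library, unlike ENTPD1, and the levels of both genes carry this limit. P2RX5 shares 43.2% of its exon bases with the readthrough gene P2RX5-TAX1BP3 on the same strand, which was at 13.7, 14.1 and 11.9 CPM on average in Sep, Susp and Adh, so P2RX5 values depend on how shared reads were assigned.

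NT5E, which makes adenosine from AMP, lies on chromosome 6 from 85449584 to 85495791. It had 12 counts in all 12 libraries together, and 8 libraries had none. Its counts were 0, 2, 0 and 0 in Sep, 2, 0, 0 and 2 in Susp, and 6, 0, 0 and 0 in Adh. In the 8 libraries at 0, the limits found as for P2RX7 were 0.145 to 0.385 CPM, or 0.29 to 0.771 CPM where a fragment gave 2 counts. REC-1 thus carried RNA of the first enzyme of the ATP to adenosine pathway, while that of the second was at the limit of detection in all 3 groups.

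ADORA2A lies on chromosome 22 from 24417879 to 24442357. It was at 0.630, 0.586, 0.628 and 1.75 CPM in Sep, 0.797, 1.29, 0.918 and 0.739 CPM in Susp, and 0.752, 1.35, 0.257 and 1.67 CPM in Adh. The groups overlapped, on 2 to 22 counts per library. Its log2 fold changes were 0.04 in Susp against Sep (SE 0.49, interval -0.98 to 1.07), 0.14 in Adh against Sep (SE 0.51, interval -0.95 to 1.22) and 0.09 in Adh against Susp (SE 0.49, interval -0.95 to 1.14). A 2-fold increase of ADORA2A lies within each of these intervals.

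**Figure D4:**
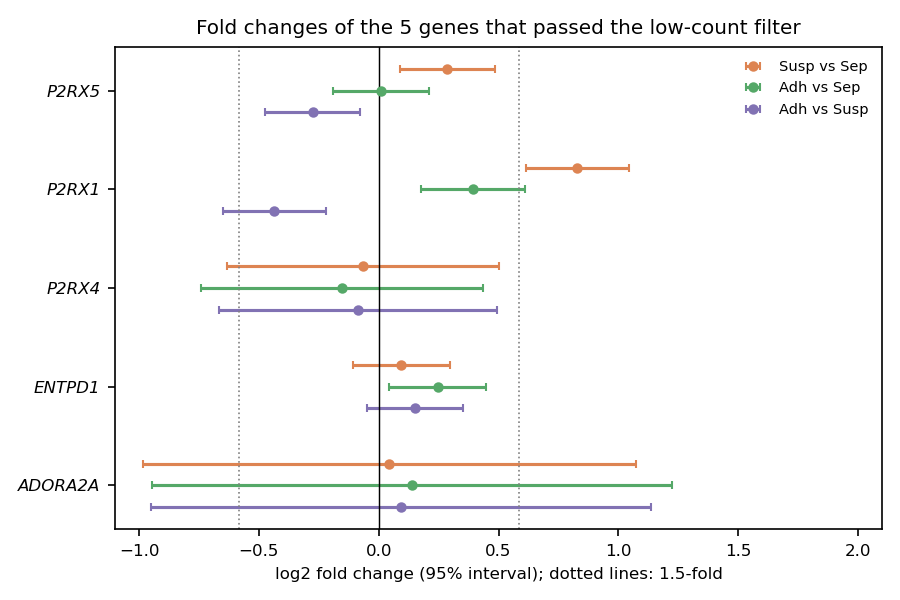
Log2 fold change (points) with its 95% interval (bars) for the 5 genes that passed the low-count filter, in Susp against Sep, Adh against Sep and Adh against Susp, with dotted lines at 1.5-fold. The interval of P2RX1 in Susp against Sep, 0.61 to 1.04, lies beyond the line, and the intervals of ADORA2A cross both lines in each comparison.

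Divided by exon length, the order of the genes in Sep was P2RX5 at 23.8 RPKM (CPM per kilobase of exon), P2RX1 at 15.6, ENTPD1 at 2.69, P2RX4 at 0.73 and ADORA2A at 0.215, with P2RX7 and NT5E below 0.02. P2RX5 and P2RX1 did not overlap in Sep (22.3 to 25.9 against 14.4 to 16.4 RPKM). In Susp they did, at 25.6 to 33.6 RPKM for P2RX5 and 24.8 to 31.9 RPKM for P2RX1. In Adh they were apart again, at 22.7 to 24.99 and 17.5 to 22.1 RPKM. These lengths are of all exons of a gene joined. They include exon bases shared with another gene, 43.2% for P2RX5, 40% for ENTPD1 and 56.8% for ADORA2A. The RPKM of these genes thus also depends on how shared reads were assigned. With the length of the canonical transcript alone, P2RX5 and P2RX1 no longer overlapped in Susp (56.7 against 41.1 RPKM on average), and P2RX4 was level with ENTPD1 in Sep (3.30 against 3.09 RPKM), so the overlap of the first pair and the order of the second depend on the transcript.

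A list of 54 further genes of purine signalling covered other receptors, ATP release, other ectoenzymes, transporters and adenosine metabolism, and 27 of these passed the filter in REC-1. In Adh against Susp 0 were called higher and 1 lower, where 0.109% and 0.669% of all genes tested were. In both Susp against Sep and Adh against Sep 0 were called, where 0.731% and 2.4% of all genes tested were. At an unadjusted p below 0.05 there were 7 in Adh against Susp, 6 in Susp against Sep and 7 in Adh against Sep, where 18%, 16.7% and 20.2% of all genes tested were. The median log2 fold change over the 27 was 0.03 in Adh against Susp, 0.04 in Susp against Sep and 0.03 in Adh against Sep, against -0.01, -0.01 and -0.0034 over all genes tested.

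The gene called was SLC17A9, the vesicular nucleotide transporter that loads ATP into vesicles. Its libraries were at 83.7, 105.9, 90.0 and 88.0 CPM in Susp and at 46.5, 58.8, 49.7 and 61.5 CPM in Adh. Sep spanned both, at 54.4, 91.5, 72.7 and 92.2 CPM. SLC17A9 fell in Adh against Susp by 0.77 on the log2 scale (SE 0.15, edgeR adjusted p = 0.0194), lower in 4 of 4 Adh libraries than in any Susp library. The call was kept with DESeq2 (adjusted p 0.00027), and in edgeR with no low-count filter (3.8e-08) and with the replicate block (0.00068). It was lost without replicate 3 (edgeR adjusted p of 0.26) or replicate 4 (0.0741) of every group. Adh against Sep gave -0.52 (SE 0.15, edgeR adjusted p = 0.0647), and without replicate 1 it gave -0.59 with an adjusted p of 0.0241.

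P2RY2, a G protein-coupled receptor for ATP and UTP, was at 22.8 to 39.5 CPM in Sep and 37.3 to 54.7 CPM in Susp, and the log2 difference was 0.67 (SE 0.18) with an edgeR adjusted p of 0.0955, while DESeq2, no low-count filter and the replicate block each called it (adjusted p 0.0233, 7.2e-05 and 0.00534). P2RY8, known from germinal centre B cells, is in the list by its P2Y name, which does not state its ligand. It was at 14.7 to 19.0 CPM in Sep and 10.5 to 13.6 CPM in Adh, without overlap. The difference, -0.52 on the log2 scale, had an edgeR adjusted p of 0.0426 and was under 1.5-fold. CD38, an ectoenzyme that uses NAD, was among the most abundant of the list at 201.6 ± 7.30 CPM in Sep, 188.4 ± 23.2 CPM in Susp and 222.6 ± 7.63 CPM in Adh (SD, n = 4 each), and it was not called.

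Some genes of the list can act beside NT5E or ADORA2A. ACPP, an acid phosphatase that can release adenosine from AMP, was at 36.5 ± 2.24, 27.7 ± 7.31 and 29.5 ± 1.30 CPM in Sep, Susp and Adh. ADORA2B, the low-affinity adenosine receptor, was at 1.99 ± 0.434, 2.46 ± 0.355 and 2.71 ± 0.860 CPM (SD, n = 4 each). SLC29A1, the main nucleoside transporter at the cell surface, was at 357.2, 341.9 and 320.7 CPM on average. NLRP3 and IL1B, which act downstream of P2RX7 in myeloid cells, did not pass the filter, while CASP1 was at 58.4, 60.2 and 60.8 CPM.

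In the stromal cells, only 1 of the 7 mouse counterparts passed the filter, P2rx4. It was at 31.9, 30.1, 32.3 and 30.3 CPM in MS5 and 35.6, 30.3, 29.3 and 31.3 CPM in Adh. The 2 groups overlapped, the log2 difference being 0.02 (SE 0.08) with an edgeR adjusted p of 0.959, and 0 counterparts were called where 0.205% of 12201 mouse genes were called, with 0 at an unadjusted p below 0.05 among the counterparts. In Adh, mouse P2rx4 had 891 to 1205 counts per library and human P2RX4 had 20 to 69. P2rx1, Entpd1 and Nt5e had at most 4 mouse counts in any library, and P2rx5 had 4 to 18. In Adh, human P2RX1 had 636 to 919 counts and mouse P2rx1 at most 2, and human ENTPD1 had 330 to 640 and mouse Entpd1 at most 4.

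**Figure D5:**
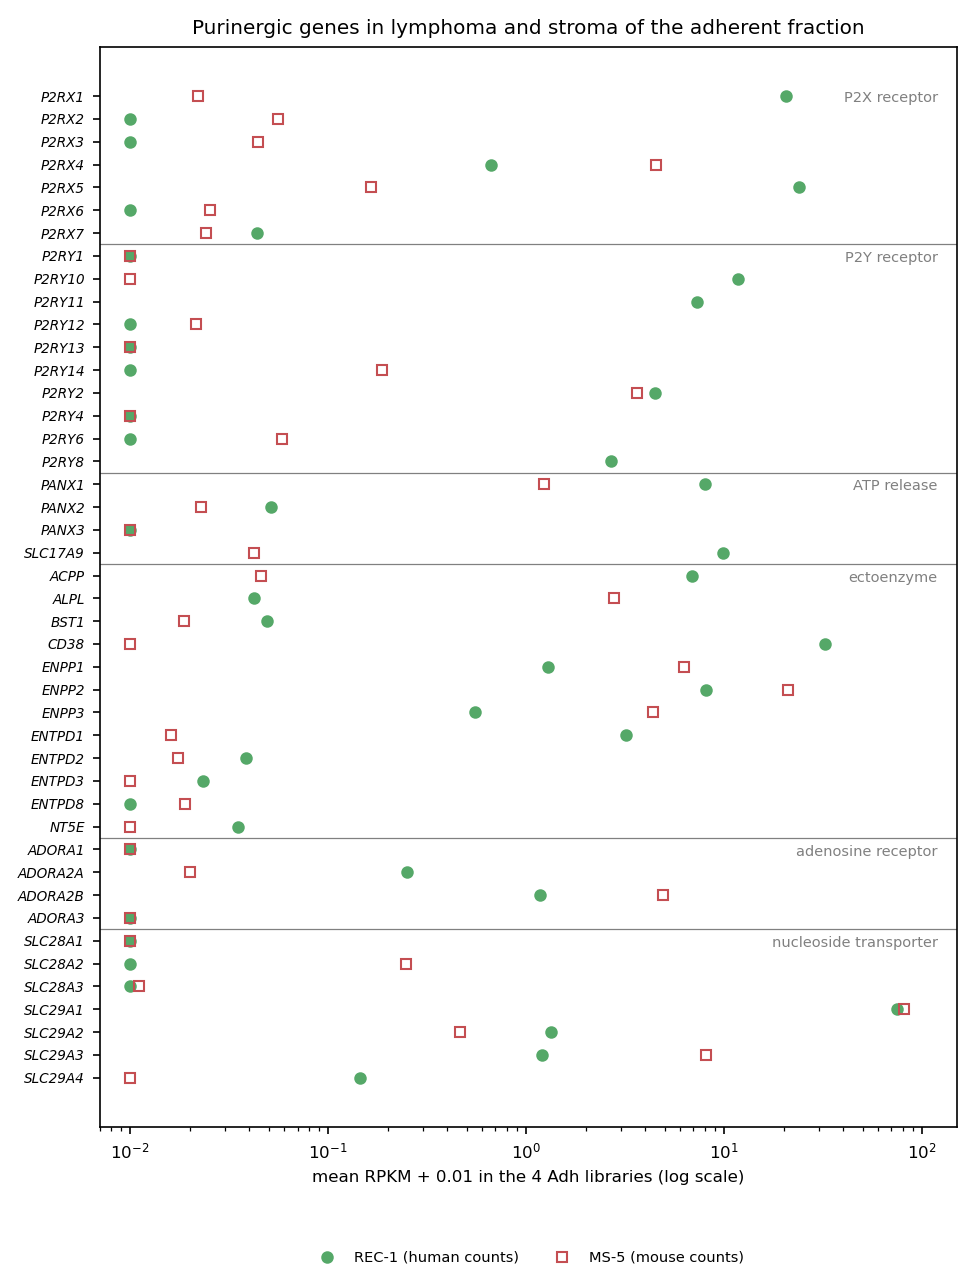
Mean level in the 4 Adh libraries, as RPKM + 0.01 on a log axis, of receptors, release channels, ectoenzymes and transporters of purine signalling in REC-1 (filled circles, human counts) and MS-5 (open squares, mouse counts), with genes missing a counterpart shown once. P2RX1, P2RX5, ENTPD1 and CD38 are at least 3.18 RPKM in the human counts and at most 0.16 RPKM in the mouse counts, whereas P2RX4 is higher in the mouse counts.

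Of 51 mouse genes of the further list found in the table, 24 passed the filter. In stromal cells cultured with REC-1, 0 were called higher and 1 lower, where 0.041% and 0.164% of all mouse genes tested were. That gene was Ampd3, an AMP deaminase, at 57.1, 66.9, 66.4 and 87.6 CPM in MS5 and 42.6, 44.3, 44.4 and 47.5 CPM in Adh. Ampd3 fell by 0.63 on the log2 scale (SE 0.10, edgeR adjusted p = 0.00922), without overlap. The Adh libraries were also deeper in mouse counts than the MS5 libraries, and the part of depth was not tested. Of all mouse genes tested, 6.74% were without overlap, and 3.68% of all were lower. The call of Ampd3 was lost without replicate 2 (edgeR adjusted p of 0.0582) or replicate 3 (0.142), and without replicate 4 the fold was under the minimum at -0.53. At an unadjusted p below 0.05 there were 6 of the 24, against 11.3% of all mouse genes tested. The median over the 24 was -0.07, against -0.0017 over all mouse genes tested. MS-5 expressed ectoenzymes that REC-1 expressed at lower levels per length or near 0, with the 2 species scaled separately, among them Enpp1 (6.23 ± 1.60 RPKM in Adh), Alpl (2.78 ± 0.477 RPKM) and Enpp3 (4.35 ± 1.26 RPKM), and these were not called.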

How the data were processed

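RNA-seq was analysed for 16 libraries, 4 each of Sep, Susp, Adh and MS5, grouped by their labels. Per the study's methods and processing notes, the authors separated species with Xenome 1.0.1, aligned reads with STAR 2.5.1b to GRCh38 and GRCm38 with Ensembl 87, and deposited raw gene counts from featureCounts (Subread 1.5.2). The library kit selected polyadenylated RNA, and the strand setting of counting is not given in the sources used here. A share of 65.6% to 79.8% of human counts from 1 to 10 were even (72.3% to 79.4% in mouse), so a count is not that many independent fragments, and intervals and floors cover counting error only. The 20 columns of another experiment were not used. No 2 libraries were identical.

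Genes were filtered with filterByExpr, scaled by TMM and tested with edgeR 4.0.16 (quasi-likelihood F-test, R 4.3.3), with the 12 REC-1 libraries in 1 model and the 8 mouse libraries in another. A call needed a Benjamini-Hochberg adjusted p of at most 0.05 over all genes and a fold change of at least 1.5. CPM used the TMM-scaled total of the genes tested. RPKM used joined exons of GENCODE 44 on GRCh38 for human genes and of a mouse GENCODE release on GRCm38 for mouse genes. Counts were made on Ensembl 87, so these lengths may differ from those of the exons counted. Genes were named by the fixed list and by call, except where stated, and likeness used a mean of at least 10 CPM. The members and lists were chosen with earlier results of these data known. The fit was tested only on simulated independent counts, drawn with the dispersions of the fit. Such counts lack the excess of even values and any deviation shared between libraries, so that test does not cover these. Same-numbered libraries deviated together (r over 0.1) in 1, 3 and 1 of 4 pairs in Susp with Sep, Adh with Sep and Adh with Susp and in 2 of 4 in mouse, and were not treated as pairs. Alternatives were DESeq2 1.42.0, RLE scaling, no filter, a replicate block, no fold minimum, leaving out each replicate or Susp replicate 2, and thinned counts. Promoter sequences are not reported here.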

Additional observations from a re-analysis of the deposited data

Results flagged for a closer look

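In 28 groups of 4 libraries, 5 values stood far from the other 3 of their group by Dixon's criterion. Chance marks about 1 in 20 groups of continuous values, a rate that does not apply to 3 of the 5, where 1 library has counts and 3 have none and the criterion is always met. P2RX4 was at 7.44 CPM in Susp replicate 2, against 4.70 to 5.11 CPM in the other Susp libraries. ADORA2A was at 1.75 CPM in Sep replicate 4, against 0.586 to 0.630 CPM. These 3 rest on at most 6 counts: P2RX7 at 0.0967 CPM in Susp replicate 3, NT5E at 0.167 CPM in Sep replicate 2 and NT5E at 0.451 CPM in Adh replicate 1, each against 0 in the other 3. Their causes were not tested.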

How the results depend on the processing

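P2RX1, chosen with its fold change known, had log2 fold changes of 0.75 (without Susp replicate 2) to 0.90 in Susp against Sep over the alternatives run, which are refits of the same libraries. Counts of called members stayed at 0, 1 and 0 except that Adh against Sep had 1 (P2RX1) with no fold minimum. Over all genes, Adh against Susp gave 100 calls, 238 with DESeq2, 341 with no filter, 281 with the replicate block and 25 to 89 leaving out 1 replicate. Susp against Sep gave 94, 156, 217, 175 and 24 to 81 under the same settings. Adh against Sep gave 309, 465 with DESeq2, 503 with no filter, 519 without Susp replicate 2 and 92 to 304 leaving out 1 replicate. The mouse comparison gave 25, 45 with no filter, 45 with the replicate block, 94 with no fold minimum, 14 with thinned counts and 7 to 27 leaving out 1 replicate. Of the further list, 1 gene (P2RY2) was called in Susp against Sep with DESeq2, no filter or the replicate block, 1 in Adh against Sep with no fold minimum, and 0 to 1 in Adh against Susp and in Adh against Sep leaving out 1 replicate. The lowest counts came without replicate 3 or 4 in the REC-1 comparisons.

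Directions turned where the fold was near 0. P2RX4 turned in Adh against Susp (0.10 without Susp replicate 2, -0.28 to 0.096 leaving out 1 replicate) and in Susp against Sep (0.17 thinned, -0.25 to 0.092). ADORA2A turned in Adh against Susp (-0.015 with the replicate block, -0.31 to 0.36), Susp against Sep (-0.15 without Susp replicate 2, -0.31 to 0.70) and Adh against Sep (-0.20 to 0.39), and failed the filter when thinned. P2RX5 turned in Adh against Sep (-0.023 to 0.063) and mouse P2rx4 (-0.014 thinned, -0.030 to 0.078). The causes were not tested. The replicate block changed no call of a member. P2RX4, P2RX7, NT5E and ADORA2A are limited by depth.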
